A study of Mus musculus with 6 samples.

Results

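The enzymes that build phospholipids through a CDP-linked intermediate were examined in 4T1 cells, a mouse breast cancer line, after treatment with BRQ. The group holds 10 genes, taken by symbol from a deposited table of 18057 genes, and all 10 were found. According to its title the series concerns inhibition of DHODH, an enzyme of pyrimidine synthesis in mitochondria, and the comparison asks how gene expression differed between cells given BRQ (3 libraries) and cells given DMSO, the solvent control (3 libraries). DHO stands in the title of each of the 6 samples with no explanation, so whether both groups shared a further compound is not known. The labels state neither dose nor duration, nor whether libraries of a group came from separate cultures, so the p-values measure only the spread between these libraries.

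Phosphatidylcholine and phosphatidylethanolamine are the main phospholipids of animal cell membranes. In the Kennedy pathway, choline or ethanolamine is phosphorylated by a kinase, joined to CTP by a cytidylyl transferase to give CDP-choline or CDP-ethanolamine, and then passed to diacylglycerol by a phosphotransferase. In a parallel branch, CDP-diacylglycerol synthases join CTP to phosphatidate to make the precursor of phosphatidylinositol and cardiolipin. Both branches consume CTP, a pyrimidine nucleotide, and the cytidylyl transferase step is regarded as the main point of control of the choline and ethanolamine branches.

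Transcripts of the cytidylyl transferase genes Pcyt1a and Pcyt2 rose under BRQ, while those of the ethanolamine kinase Etnk1 and the ethanolamine phosphotransferase Selenoi fell. Pcyt2 rose 1.87-fold and Pcyt1a 1.59-fold on the ratio of mean FPKM, the length- and depth-scaled fragment value that the authors deposited. Etnk1 was 1.69-fold lower and Selenoi 1.3-fold lower. Chkb, a choline kinase, rose 1.14-fold, a call that depended on the scaling. Chka, Chpt1, Cept1, Cds1 and Cds2 did not pass the test.

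Levels were tested with limma on log2(FPKM + 1), and calls were made at an adjusted p of 0.05 (Benjamini-Hochberg) across the 10552 genes that averaged 1 FPKM or more. All 10 enzyme genes passed this filter, 3 were called higher and 2 lower. Across the tested genes 82.4% were called, 48.7% higher and 33.7% lower, against 50.0% of the enzymes (5 of 10), and this difference was not tested. Their median absolute log2 fold change was 0.13, against 0.41 over all tested genes. The BRQ and DMSO values did not overlap for 6 of the 10, against 83.7% of tested genes. The median signed log2 fold change of all tested genes was 0.12, and other scalings evened the 5143 higher and 3555 lower calls. Median-ratio scaling called 82.8% of genes (41.6% higher, 41.2% lower), with 2 enzymes higher and 3 lower. TMM scaling called 82.9% (41.3% higher, 41.5% lower), and quantile normalization 82.3% (40.3% higher, 42.0% lower), each with 2 enzymes higher and 4 lower. Changes are therefore also given relative to 0.12 where this matters.

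Whole reads recovered from the steps between FPKM values, summed over genes, came to 33012878 to 34053453 in the BRQ libraries and 30942871 to 33840622 in the DMSO libraries. Reads not assigned to a gene are not in these sums. Dhodh measured 24.1 ± 1.55 FPKM under BRQ and 10.97 ± 0.473 under DMSO (SD, n = 3 each). A list of 8 epithelial markers summed to 1405 to 1448 FPKM under BRQ and 1901 to 1959 under DMSO, with Krt7, Krt8, Krt14, Krt18, Krt19 and Cdh1 called lower, Epcam called higher and Cldn7 not tested. The log2 fold change of Epcam was 0.08, below the median of 0.12 over all tested genes. A list of 12 hepatocyte markers summed to 16.02, 0.716 and 0.458 FPKM in BRQ replicates 1, 2 and 3, against 16.4 to 19.95 in the DMSO libraries. A list of 12 macrophage markers summed to 18.3, 60.8 and 61.9 FPKM in the same 3 libraries, against 12.5 to 14.2 in the DMSO libraries. Most of that difference came from Lyz2, at 3.56, 35.4 and 36.4 FPKM under BRQ and 4.44 to 5.38 under DMSO, with smaller parts from Cd14 and Tyrobp. The values of the groups overlapped for Lyz2, Tyrobp, Adgre1, Mrc1, Csf1r, Fcgr1, C1qa, C1qb and C1qc, and were separate for Cd14, Fcer1g and Itgam. In BRQ replicates 2 and 3 all of the 12 but Mrc1 and C1qc exceeded every DMSO library. Only Lyz2, Cd14 and Tyrobp passed the filter and were tested. BRQ replicates 2 and 3 thus stood apart in the sums of both lists, and no marker of either list was at 0 in all 6 libraries. A list of 9 fibroblast and endothelial markers summed to 8.27 to 9.04 FPKM under BRQ and 4.76 to 5.23 under DMSO, most of it from Pdgfra. When BRQ was represented by replicate 1 alone, with the spread taken from DMSO, 73.5% of 10505 tested genes were called (43.4% higher, 30.1% lower), and of the enzymes 2 were higher (Pcyt1a and Pcyt2) and 2 lower (Etnk1 and Selenoi). In bulk RNA, fewer cells of a type and less RNA per cell cannot be told apart. The source of the hepatocyte and macrophage transcripts in these 4T1 libraries was not tested.

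**Figure D1:**
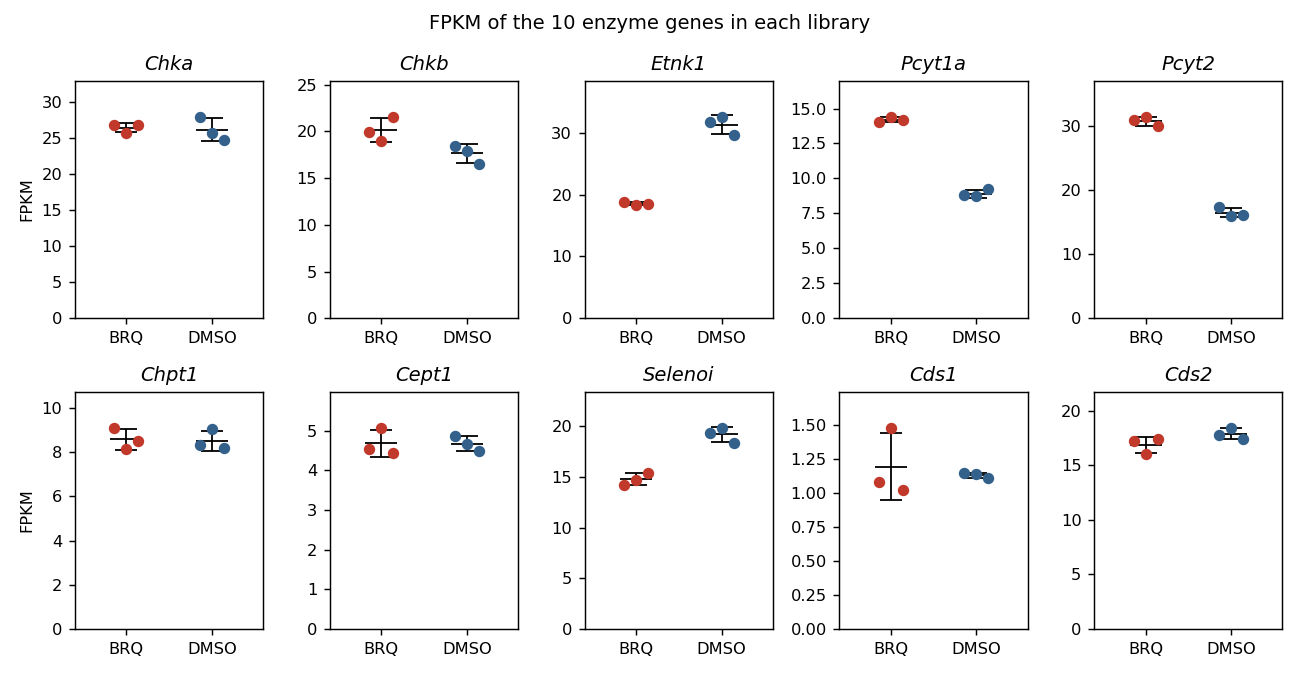
FPKM of each of the 10 enzyme genes in every library, with BRQ on the left and DMSO on the right of each panel. Points are libraries, and the bars give the mean and SD of 3 libraries. Pcyt1a and Pcyt2 lie higher under BRQ, Etnk1 and Selenoi lower, and the values of the groups overlap for Chka, Chpt1, Cept1 and Cds1.

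The kinases that open the choline and ethanolamine branches did not move together. Etnk1 (Entrez 75320), which phosphorylates ethanolamine, was listed at 18.7, 18.3 and 18.4 FPKM under BRQ, against 31.8, 32.5 and 29.6 under DMSO. All 3 BRQ libraries lay far below the lowest DMSO library. The means were 18.5 ± 0.231 FPKM under BRQ and 31.3 ± 1.48 under DMSO (SD, n = 3 each), resting on 5183 to 5466 reads per BRQ library and 8610 to 9222 per DMSO library. The log2 fold change was -0.73 (SE 0.0419, limma adjusted p = 1.02e-07), or -0.84 relative to the median of all genes, and 7.0% of tested genes had a lower fold change. With BRQ replicate 1 alone it was -0.71. Etnk1 was also called under each of the 16 alternative settings.

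Chka (Entrez 12660), the choline kinase often found at high levels in tumours, measured 26.7, 25.7 and 26.8 FPKM under BRQ and 27.9, 25.8 and 24.8 under DMSO. The groups overlapped, and the log2 fold change of 0.02 had a 95% interval of -0.09 to 0.12 (limma adjusted p = 0.75). Under TMM scaling and quantile normalization Chka was called lower instead, by -0.11 and -0.15, and under median-ratio scaling it stood at -0.11 without a call. Chkb (Entrez 12651), the other choline kinase gene, measured 19.96, 18.99 and 21.5 FPKM under BRQ and 18.5, 17.9 and 16.5 under DMSO. Its groups did not overlap but lay close, 0.524 FPKM apart at their nearest. The log2 fold change was 0.18 (SE 0.0563, adjusted p = 0.0124), which is 0.07 relative to the median of all genes. The call was lost under the 3 other scalings (0.060, 0.055 and 0.039), without BRQ replicate 3 (0.14) and with BRQ replicate 1 alone (0.17, adjusted p = 0.0714).

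Both cytidylyl transferase genes among the 10 rose. Pcyt2 (Entrez 68671), which makes CDP-ethanolamine, had 30.9, 31.3 and 29.9 FPKM under BRQ, against 17.3, 15.9 and 16.1 under DMSO. The lowest BRQ library exceeded the highest DMSO library by a wide margin. Its mean of 30.7 ± 0.724 FPKM under BRQ and 16.4 ± 0.728 under DMSO (SD, n = 3 each) rested on 1965 to 2024 reads per BRQ library and 950 to 1126 per DMSO library. The log2 fold change was 0.86 (SE 0.0422, limma adjusted p = 3.31e-08), 0.75 relative to the median of all genes, and 89.4% of tested genes had a lower one. Pcyt1a (Entrez 13026), which makes CDP-choline, had 14.05, 14.4 and 14.2 FPKM under BRQ, against 8.79, 8.71 and 9.24 under DMSO. Here too the groups were clearly separate. The log2 fold change was 0.62 (SE 0.0441, adjusted p = 4.84e-07), or 0.50 relative to the median of all genes, with 2485 to 2525 reads per BRQ library and 1411 to 1636 per DMSO library. Both genes were called under all 16 alternative settings, with log2 fold changes of 0.70 to 0.90 for Pcyt2 and 0.49 to 0.67 for Pcyt1a. With BRQ replicate 1 alone they were 0.87 and 0.60.

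The stretch before the start of Pcyt1a is printed because this gene rose, and the stretch before the start of Selenoi because that gene fell. Both are the 250 bases before the most upstream start in the RefSeq promoter table of build GRCm38.p6, on the plus strand, written 5′ to 3′. They lie at chr16:32430671-32430920 and chr5:30232331-30232580. Of the 10 enzyme genes 9 were matched in that table by symbol, and Pcyt2 was not. The stretch of Etnk1, which fell further than Selenoi, was left out because a RefSeq transcript starts upstream of its entry. Capitals mark matches to the motifs named next.
Pcyt1a: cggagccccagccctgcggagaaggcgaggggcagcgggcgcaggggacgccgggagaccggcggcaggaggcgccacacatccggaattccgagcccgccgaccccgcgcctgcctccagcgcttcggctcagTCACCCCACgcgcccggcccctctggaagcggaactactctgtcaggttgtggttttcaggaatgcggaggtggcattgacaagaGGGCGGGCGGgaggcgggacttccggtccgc
Selenoi: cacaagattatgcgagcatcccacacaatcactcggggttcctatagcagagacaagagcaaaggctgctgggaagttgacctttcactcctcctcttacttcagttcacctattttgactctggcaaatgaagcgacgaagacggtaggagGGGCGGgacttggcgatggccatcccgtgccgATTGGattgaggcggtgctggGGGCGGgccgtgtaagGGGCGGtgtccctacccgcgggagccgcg
The sequences were searched on both strands for a form of the sterol response element, TCACNCCAC, for the GC box with the letters GGGCGG, for the CCAAT box, and for the E-box with the letters CACGTG. The cyclic AMP response element TGACGTCA, the AP-1 motif with the letters TGANTCA and the TATA box with the letters TATAAA were also searched. The Pcyt1a stretch held the match TCACCCCAC at bases -116 to -108, counted from the start site, and 2 GC boxes that overlap each other at -31 to -26 and -27 to -22. The Selenoi stretch held 3 GC boxes, at -98 to -93, -45 to -40 and -29 to -24, and a CCAAT box on the minus strand at -66 to -62. Over all 32851 stretches of the table, 1.05% held TCACNCCAC, 32.7% GGGCGG, 33.8% CCAAT, 6.02% CACGTG, 1.55% TGACGTCA, 6.75% TGANTCA and 12.4% TATAAA. A match describes the letters only, and binding was not measured.

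Of the phosphotransferases that finish both lipids, only Selenoi was called. Selenoi (Entrez 28042), a selenoprotein that makes phosphatidylethanolamine, measured 14.2, 14.7 and 15.4 FPKM under BRQ, against 19.4, 19.9 and 18.4 under DMSO. The BRQ libraries all lay below the DMSO libraries. The log2 fold change was -0.36 (SE 0.0459, limma adjusted p = 4.24e-05), or -0.47 relative to the median of all genes. It stayed between -0.50 and -0.33 over the 16 alternatives and was called in each, and it was -0.41 with BRQ replicate 1 alone. Cept1 (Entrez 99712), which accepts CDP-choline and CDP-ethanolamine alike, measured 4.53, 5.07 and 4.44 FPKM under BRQ and 4.86, 4.66 and 4.48 under DMSO. The groups overlapped, with a log2 fold change of 0.002 and a 95% interval of -0.14 to 0.15 (adjusted p = 0.979). Chpt1 (Entrez 212862), which makes phosphatidylcholine in the Golgi, measured 9.10, 8.16 and 8.50 FPKM under BRQ and 8.31, 9.03 and 8.18 under DMSO. Its values overlapped as well, with a log2 fold change of 0.01 and an interval of -0.12 to 0.14 (adjusted p = 0.848). Under the 3 other scalings Cept1 and Chpt1 had negative log2 fold changes, none of them called.

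The CDP-diacylglycerol synthase genes did not pass the test. Cds2 (Entrez 110911), the more abundant of the pair, had 17.2, 16.04 and 17.4 FPKM under BRQ and 17.8, 18.4 and 17.4 under DMSO. The groups were separate by a small margin, and the log2 fold change of -0.08 had a 95% interval of -0.18 to 0.02 (limma adjusted p = 0.126). After median-ratio, TMM and quantile scaling it was called lower, by -0.20, -0.21 and -0.22. Cds1 (Entrez 74596) had 1.08, 1.48 and 1.02 FPKM under BRQ and 1.14, 1.14 and 1.11 under DMSO. It stood just above the filter, with 138 to 193 reads per BRQ library and 139 to 153 per DMSO library. Only BRQ replicate 2 exceeded the DMSO libraries. The interval of its log2 fold change, -0.17 to 0.25 around 0.04 (adjusted p = 0.718), was the widest of the 10, and without BRQ replicate 2 the value was -0.05.

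**Figure D2:**
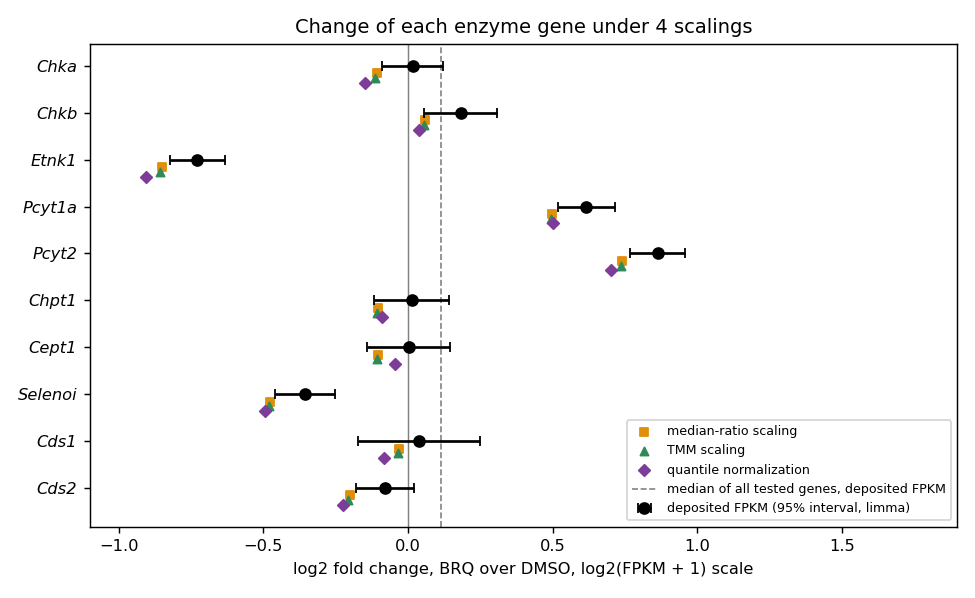
Log2 fold change of each enzyme gene, BRQ over DMSO, on the log2(FPKM + 1) scale. Black points with 95% intervals are from the deposited FPKM, coloured points are from the 3 other scalings, and the dashed line is the median of all tested genes at 0.12. Pcyt1a, Pcyt2, Etnk1 and Selenoi keep their side of 0 under all 4, while Chka, Chpt1, Cept1 and Cds1 pass from just above 0 to below it.

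The order of the levels differed between the groups. Under BRQ, Pcyt2 was the most abundant of the 10 per kilobase, followed by Chka, Chkb, Etnk1, Cds2, Selenoi, Pcyt1a, Chpt1, Cept1 and Cds1, and only Selenoi and Pcyt1a overlapped among neighbours. Under DMSO, Etnk1 came first, followed by Chka, Selenoi, Cds2, Chkb, Pcyt2, Pcyt1a, Chpt1, Cept1 and Cds1. There the values of Selenoi and Cds2, Cds2 and Chkb, Chkb and Pcyt2, and Pcyt1a and Chpt1 overlapped. Pcyt2 thus ranked 1 under BRQ and 6 under DMSO, and Etnk1 ranked 4 under BRQ and 1 under DMSO. Ranks between genes rest partly on the gene lengths behind FPKM, which are not given.

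Summed by step over the 10 genes, Pcyt1a and Pcyt2 reached 44.9 ± 0.815 FPKM under BRQ and 25.4 ± 0.712 under DMSO (SD, n = 3 each). This sum leaves out Pcyt1b, a further cytidylyl transferase gene described with the neighbouring lists. The 3 kinase genes summed to 65.1 ± 1.94 FPKM under BRQ and 75.1 ± 3.73 under DMSO. The 3 phosphotransferase genes summed to 28.1 ± 0.245 FPKM under BRQ and 32.4 ± 1.25 under DMSO. The CDP-diacylglycerol synthase genes summed to 18.1 ± 0.49 FPKM under BRQ and 19.0 ± 0.521 under DMSO. Of these sums only that of Pcyt1a and Pcyt2 was higher under BRQ, and the sums were not tested.

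Ratios within a library do not move with a common scaling. The ratio of Pcyt2 to Etnk1, chosen after the values were seen and not tested, was 1.65, 1.71 and 1.62 in the BRQ libraries, against 0.544, 0.490 and 0.544 in the DMSO libraries. In FPKM the cytidylyl transferase transcript of the ethanolamine branch was thus above the kinase transcript in every BRQ library and below it in every DMSO library. Which gene of a pair stands higher rests partly on the gene lengths behind FPKM, which are not given. In recovered reads Etnk1 exceeded Pcyt2 in every library. Etnk1 had 5183 to 5466 reads under BRQ and 8610 to 9222 under DMSO, against 1965 to 2024 and 950 to 1126 for Pcyt2. The ratio of Pcyt2 to Selenoi, chosen in the same way, was 2.17, 2.13 and 1.94 under BRQ and 0.893, 0.802 and 0.876 under DMSO. In the choline branch the ratio of Pcyt1a to Chpt1 was 1.66 ± 0.109 under BRQ and 1.05 ± 0.0825 under DMSO, and that of Pcyt1a to the sum of Chka and Chkb was 0.305 ± 0.0149 under BRQ and 0.204 ± 0.0176 under DMSO. These choline ratios leave out Pcyt1b, the other CDP-choline gene. Its mean FPKM was 23.4 under BRQ and 15.9 under DMSO, above the 14.2 and 8.91 of Pcyt1a.

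Pairs of enzymes of the same or parallel steps were compared by the difference of their log2(FPKM + 1) within each library, in 5 exact permutation tests over the 6 libraries, two-sided. With 3 libraries in each group such a test cannot give a p below 0.10. The ratio of Pcyt2 to Pcyt1a was 2.20, 2.18 and 2.11 in the BRQ libraries, against 1.97, 1.83 and 1.75 in the DMSO libraries. On the tested log2(FPKM + 1) scale the difference was 0.25 (exact p = 0.10, 0.167 adjusted over the 5 pairs). The ratio was higher in each BRQ library than in any DMSO library. This ratio leaves out Pcyt1b, so it does not set Pcyt2 against all CDP-choline enzyme transcripts. Chka took 56.8% ± 1.09 of the summed choline kinase FPKM under BRQ and 59.7% ± 0.667 under DMSO, a difference of -0.17 in log2 ratio, with separate groups and the same p-values. Selenoi stood at 3.14, 2.91 and 3.47 times Cept1 under BRQ, against 3.98, 4.26 and 4.11 times under DMSO, again separate and with the same p-values (-0.36). The groups overlapped for Cept1 against Chpt1 (-0.01, exact p = 1.0) and for Cds1 against Cds2 (0.12, exact p = 0.6). No pair passed an adjusted p of 0.05.

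**Figure D3:**
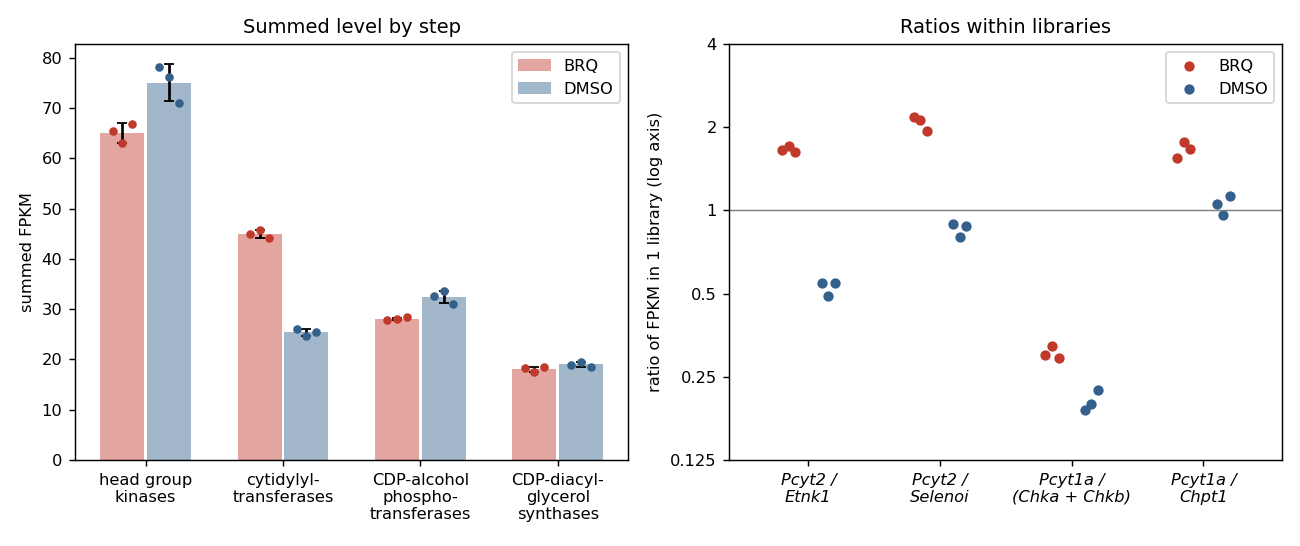
Left, FPKM summed over those of the 10 enzyme genes that act at each step (Pcyt1b is not among them), with BRQ bars left of DMSO bars, the mean and SD of 3 libraries, and points for libraries. Right, ratios of FPKM within each library on a log axis, chosen after the values were seen. The cytidylyl transferase sum is higher in the 3 BRQ libraries. In FPKM, which depends on gene length, Pcyt2 lies above Etnk1 and Selenoi in the BRQ libraries and below them in the DMSO libraries.

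Of 6 other genes of phosphatidylcholine, phosphatidylethanolamine and phosphatidylserine synthesis, 5 were tested, of which 4 rose and 1 fell, where 48.7% of all tested genes rose and 33.7% fell. Their median log2 fold change was 0.52, against 0.12 over all genes. Under the 3 other scalings 3 rose and 1 fell, where 40.3% to 41.6% of all tested genes rose, and the difference from all genes was not tested. Pcyt1b, which encodes the other CDP-choline enzyme, measured 22.6, 22.8 and 24.8 FPKM under BRQ, against 16.3, 15.8 and 15.7 under DMSO (log2 fold change 0.52, limma adjusted p = 2.14e-06). Ptdss2, a phosphatidylserine synthase, measured 17.1 ± 0.597 FPKM under BRQ and 11.4 ± 0.73 under DMSO. Pisd, which makes phosphatidylethanolamine from phosphatidylserine in mitochondria and so bypasses Etnk1 and Selenoi, measured 15.98 ± 0.607 FPKM under BRQ and 10.9 ± 0.103 under DMSO (log2 fold change 0.52, adjusted p = 1.71e-06). Ptdss1 measured 18.6 ± 1.51 FPKM under BRQ and 15.8 ± 0.545 under DMSO, and its call was lost under the 3 other scalings. Pemt, which methylates phosphatidylethanolamine to phosphatidylcholine and is most active in liver, was low, at 0.910, 1.39 and 1.11 FPKM under BRQ and 1.29, 1.61 and 1.87 under DMSO. Its groups overlapped, and its call (-0.28, adjusted p = 0.0398) was lost under 6 of 15 alternatives. The hepatocyte markers summed to 16.02, 0.716 and 0.458 FPKM in BRQ replicates 1, 2 and 3, while Pemt was lowest in BRQ replicate 1. The part of these markers in the value of Pemt was not tested. Etnk2, a second ethanolamine kinase gene, stayed under 0.1 FPKM in every library.

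Among the users of CDP-diacylglycerol and the cardiolipin genes, 4 of 7 rose (57.1%) and 2 fell (28.6%), with a median of 0.35. Over all tested genes 48.7% rose and 33.7% fell, and the difference was not tested. Cdipt, which makes phosphatidylinositol, measured 78.1 ± 1.2 FPKM under BRQ and 47.9 ± 0.957 under DMSO (log2 fold change 0.69, limma adjusted p = 1.46e-08). Tamm41, the mitochondrial CDP-diacylglycerol synthase that supplies cardiolipin, measured 23.7 ± 0.818 FPKM under BRQ and 15.04 ± 0.884 under DMSO (0.63, adjusted p = 1.06e-06). Pgs1, which makes phosphatidylglycerophosphate, fell to 43.3 ± 0.768 FPKM under BRQ, against 49.2 ± 2.47 under DMSO. Lclat1, an acyltransferase that acts on lysocardiolipin, fell to 8.16 ± 0.42 FPKM, against 11.4 ± 0.241 under DMSO.

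Of 9 tested genes of CTP supply 5 rose (55.6%) and 3 fell (33.3%), with a median of 0.48. These shares were near the 48.7% and 33.7% over all tested genes. The CTP synthetase genes were both lower: Ctps measured 49.2 ± 1.1 FPKM under BRQ and 71.5 ± 1.25 under DMSO (log2 fold change -0.53, limma adjusted p = 1.07e-07). Ctps2 measured 7.84 ± 0.817 FPKM under BRQ and 11.4 ± 0.441 under DMSO (-0.49, adjusted p = 7.91e-05). Nme3, of the nucleoside diphosphate kinase family that phosphorylates CDP and other nucleotides, measured 21.6 ± 1.22 FPKM under BRQ and 8.76 ± 0.449 under DMSO (1.21, adjusted p = 2.02e-08). Nme1 measured 182 ± 2.58 FPKM under BRQ and 110 ± 2.09 under DMSO. Nme1 and Nme2 are close relatives, and reads may be shared between them.

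Of 18 tested genes on either side of phosphatidate and diacylglycerol 8 rose (44.4%) and 5 fell (27.8%), where 48.7% and 33.7% of all tested genes did. Their median was 0.02 (-0.092 against that of all genes). Under the 3 other scalings 7 to 8 rose and 8 fell, where 40.3% to 41.6% of all tested genes rose and 41.2% to 42.0% fell. Lpin3, a phosphatidate phosphatase, measured 7.01 ± 0.613 FPKM under BRQ and 3.01 ± 0.472 under DMSO (log2 fold change 1.001, limma adjusted p = 3.7e-06). Agpat5, an acyltransferase that forms phosphatidate, measured 26.8 ± 0.36 FPKM under BRQ and 13.8 ± 0.743 under DMSO (0.91). Plpp2, a lipid phosphate phosphatase, fell to 20.1 ± 0.705 FPKM under BRQ, against 43.9 ± 3.14 under DMSO (-1.08, adjusted p = 2.98e-08), and the diacylglycerol kinase gene Dgka fell to 7.05 ± 0.739, against 12.4 ± 0.555.

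Of 10 tested genes of choline and ethanolamine supply 7 rose (70.0%) and 3 fell (30.0%), with a median of 0.27. The shares over all tested genes were 48.7% and 33.7%, and the difference was not tested. The choline transporter gene Slc44a1 fell to 18.5 ± 0.39 FPKM under BRQ, against 27.1 ± 1.12 under DMSO (log2 fold change -0.53, limma adjusted p = 9.17e-07). Slc44a3, of the same family, measured 1.35 ± 0.178 FPKM under BRQ and 1.74 ± 0.115 under DMSO, and its call was lost under 6 of 15 alternatives. Gdpd1, a phosphodiesterase of lysophospholipids, measured 21.8 ± 0.777 FPKM under BRQ and 10.5 ± 0.752 under DMSO (0.98, adjusted p = 8.25e-08). Pnpla6, a lysophospholipase that acts on phosphatidylcholine products, measured 9.15 ± 0.551 FPKM under BRQ and 5.46 ± 0.224 under DMSO.

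In phospholipid remodelling and ether lipid synthesis 4 of 11 tested genes rose (36.4%) and 5 fell (45.5%), where 48.7% and 33.7% of all tested genes did. Their median was 0.05 (-0.070 against that of all genes), and the difference in shares was not tested. Under the 3 other scalings 2 rose and 5 fell, where 40.3% to 41.6% of all tested genes rose and 41.2% to 42.0% fell. Mboat7, which places arachidonate on lysophosphatidylinositol, measured 29.1 ± 0.883 FPKM under BRQ and 18.04 ± 1.05 under DMSO, and Gnpat, which opens ether lipid synthesis, 52.6 ± 1.09 under BRQ and 41.8 ± 0.65 under DMSO. Far1, which supplies fatty alcohols for ether lipids, fell to 34.96 ± 0.481 FPKM under BRQ, against 53.6 ± 0.549 under DMSO. Mboat1 fell to 17.95 ± 1.4 FPKM under BRQ, against 26.2 ± 0.182 under DMSO.

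**Figure D4:**
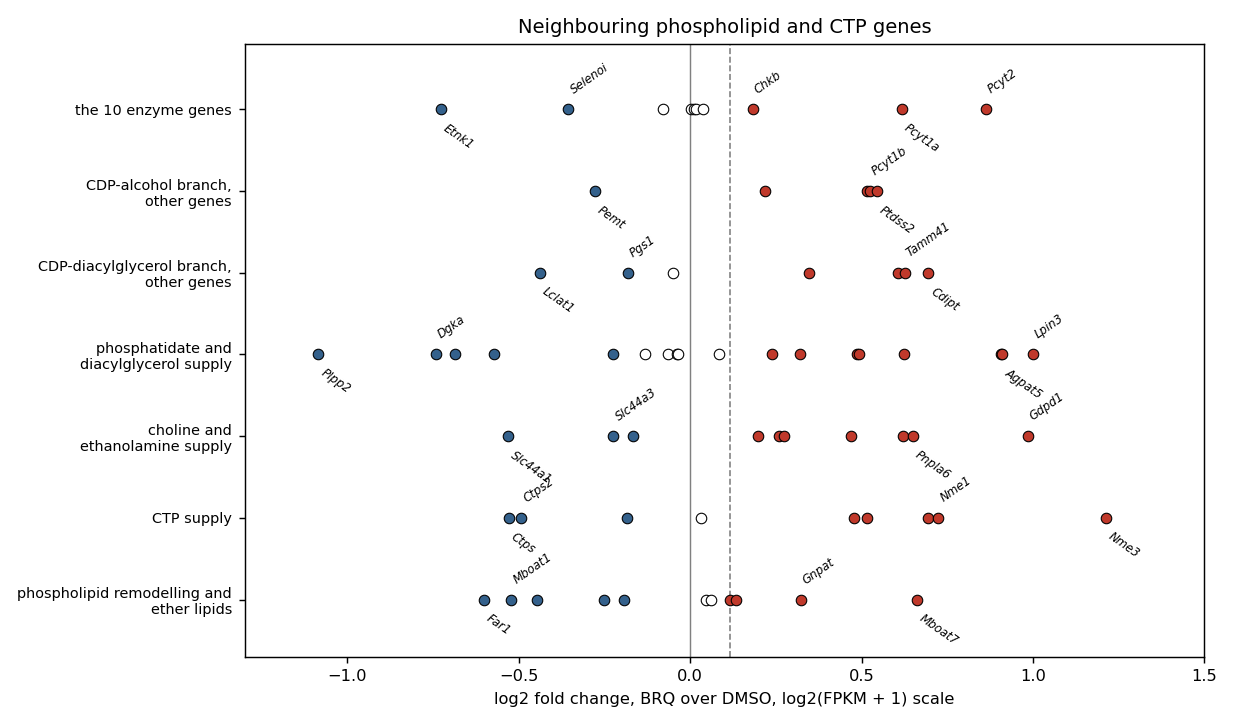
Log2 fold changes, BRQ over DMSO, of the 10 enzyme genes and of 6 lists of neighbouring genes. Each point is a tested gene, red where called higher, blue where called lower and white where not called, and the dashed line is the median of all tested genes at 0.12. The enzyme genes span -0.73 to 0.86, and 5 of them are white.

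The tested genes most like Pcyt2 across the 6 libraries, by Pearson's r of log2(FPKM + 1), were Pdlim7, Rnf149 and Hirip3 (r = 0.9999, 0.9997 and 0.9997). Those most like Etnk1 were Atp2b1, Hmbox1 and Parva (r = 0.9998, 0.9997 and 0.9997). These values describe a difference between the groups shared by many genes, since 1301 genes exceeded r = 0.99 with Pcyt2 and 869 with Etnk1.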

How the data were processed

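The authors deposited 1 table of FPKM per gene and library, with replicates not pooled. The submitters' processing notes name fastp, HTSeq and build GRCm39. For the aligner, annotation, strand setting and tool versions, nothing is given in the sources used here. Another 8 value columns matched none of the samples and were left out. Sample titles gave the groups and replicate numbers. The 10552 genes averaging 1 FPKM or more across libraries were fitted with limma 3.58.1 in R 4.3.3 (trended prior, no covariates, two-sided) on log2(FPKM + 1), which understates changes of low genes, and the enzyme genes were read from that fit. Fold changes are BRQ over DMSO, and intervals are 95% limma intervals. Each gene's FPKM moves in steps of 1 read, which gave back its reads unless all 6 share a divisor. All 10552 tested genes gave whole reads within 0.018 reads. The median tested gene had 1633 reads. Replicates differed by more than counting noise (chi-square per gene of 4.71 to 5.54) and were kept apart.

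The enzyme genes, the 6 neighbouring lists, the 4 marker lists and the pairs were chosen with earlier results of these data known. Named genes are the 10 enzymes, Dhodh, and the 2 largest called rises and falls of each neighbouring list. Ptdss1, Pisd and Etnk2 were named after their values were seen. The 3 genes most like Pcyt2 and Etnk1 leave out predicted and clone names. The model was also run on simulated data in which few genes changed, unlike here, where 82.4% of tested genes were called. Alternatives were 0.1 as pseudocount, the low-value filter dropped or set to 5 FPKM, 3 other scalings (median ratios, TMM, quantile), the replicate number as a block, a robust prior, limma-voom on recovered reads, each library left out, and BRQ replicate 1 alone. Applying them to the neighbouring lists was added after the data were seen. Same-numbered libraries of both groups did not deviate together.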

Additional observations from a re-analysis of the deposited data

How the results depend on the processing

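Calls of Pcyt1a, Pcyt2, Etnk1 and Selenoi held under all 16 alternatives, and the number of genes called over the table ranged from 6984 (filter at 5 FPKM) to 9534 (no filter). Enzymes called lower numbered 4 under TMM scaling and 4 under quantile normalization, against 2. Under median-ratio, TMM and quantile scaling the log2 fold changes were -0.11, -0.11 and -0.15 for Chka, 0.060, 0.055 and 0.039 for Chkb, -0.10, -0.11 and -0.090 for Chpt1, -0.10, -0.11 and -0.045 for Cept1, -0.0314, -0.0342 and -0.0813 for Cds1, and -0.20, -0.21 and -0.22 for Cds2. These scalings take off the median shift of 0.12 by construction. With BRQ replicate 1 alone Chkb stood at 0.17, Cept1 at -0.0350 and Cds1 at -0.0341, and the cause was not tested. With 1 library left out, values ranged from -0.020 to 0.062 for Chka, 0.14 to 0.22 for Chkb, -0.026 to 0.052 for Chpt1, -0.047 to 0.032 for Cept1 and -0.053 to 0.093 for Cds1. The log2 ratio of Cept1 to Chpt1 changed by 0.045 under quantile normalization and by -0.091 to 0.046 with 1 library left out, and that of Cds1 to Cds2 by -0.0087 to 0.19. At 138 to 193 reads Cds1 was the least precise enzyme.

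Of other genes of the choline and ethanolamine branches 0 were called lower without a filter, at 5 FPKM (where Pemt was not tested) and under limma-voom, and 0 to 1 with 1 library left out. Of phosphatidate and diacylglycerol genes 8 were lower under each of the 3 scalings. Of remodelling and ether lipid genes 2 were higher without a filter, under each of the 3 scalings and with the replicate block, and 2 to 3 with 1 library left out. Deviations of same-numbered libraries correlated at 0.004, -0.032 and -0.034, and those of different-numbered libraries at -0.004 to 0.037. The labels do not state whether the numbers mark pairs. With the replicate block 8619 genes were called, and 3 enzymes were higher and 2 lower, as without it. Filters at 5 FPKM left Cds1 and Cept1 untested.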

Other observations

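All 10 enzyme genes carry the table's annotation for glycerophospholipid metabolism. Of the 94 genes so annotated, a set read after the data were seen, 68 were tested, of which 36 (52.9%) were higher and 17 (25%) lower. The shares over all tested genes were 48.7% and 33.7%, and the difference was not tested. Their median log2 fold change was 0.20, against 0.12 over all tested genes. The RefSeq annotation of GRCm38.p6 places other genes over some enzyme genes, and a strand setting for the counting is not stated. Cept1 overlaps Dram2, listed at 9.74 FPKM under BRQ and 8.91 under DMSO, and Dennd2d, at 2.6 FPKM in both groups. Chpt1 overlaps Sycp3, at 0.203 FPKM under BRQ and 0.318 under DMSO. Chkb, Selenoi, Cds1 and Cds2 overlap genes not analysed here. A search by symbol found no overlapping gene for Chka, Etnk1, Pcyt1a and Pcyt2. Such a search also finds none for a symbol missing from that annotation.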
